A study of Mus musculus with 1 sample.

Results

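The haemoglobin and erythroid genes were 7 of the 32285 genes counted in peripheral blood cells of 1 vehicle-treated SCLC mouse. They were the adult alpha globin genes Hba-a1 and Hba-a2, the adult beta globin genes Hbb-bs and Hbb-bt, and the erythroid genes Alas2, Bpgm and Car2, chosen by name, and all 7 were found in the table. The mouse carried autochthonous small cell lung cancer, raised on a C57BL/6 background by deleting Rb1 and Trp53 with Cre from an adenovirus given into the windpipe, and received phosphate-buffered saline as vehicle. Its age and sex are not given in the sources used here. The labels call the cells T lymphocytes from PBMC: 150 µl of blood was drawn, red blood cells were lysed in 850 µl of ACK buffer for 10 min, and CD3 cells were selected negatively with the Pan T Cell Isolation Kit II. Gene expression and T cell receptors were read from the same droplet barcodes. The group is 1 library from 1 animal, so there is no replicate error and no comparison between mice. All intervals are exact 95% intervals, binomial (Clopper-Pearson) for shares and Poisson for rates, and they cover counting error only. Where a count is 0, the limit given with the word allows is that of 3 counts. The library of the combination-treated mouse was not analysed here.

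Adult haemoglobin is a tetramer of alpha and beta globin chains, each holding a haem group. Red cells make it in large amounts before and shortly after they lose the nucleus, and the youngest circulating cells, the reticulocytes, still carry globin mRNA. Alas2 encodes the erythroid enzyme that starts haem synthesis. Bpgm encodes the enzyme that makes 2,3-bisphosphoglycerate, which lowers the oxygen affinity of haemoglobin, and Car2 encodes a carbonic anhydrase of the red cell cytoplasm. Lymphocytes served here as cells that should lack globin synthesis.

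The members lie on 5 chromosomes of GRCm38.p6. The alpha genes are 11:32283672-32284486 (Hba-a1) and 11:32296492-32297310 (Hba-a2) on the forward strand, and the beta genes are 7:103826523-103827928 (Hbb-bs) and 7:103812524-103813923 (Hbb-bt) on the reverse strand. Alas2 is X:150547417-150570622, Bpgm is 6:34476356-34505136 and Car2 is 3:14886269-14900770. The 120 bases before the annotated start are shown for 5 of the members, because these genes were found in the same barcodes and the alpha and the beta genes are close copies. The sequences are from RefSeq on GRCm38.p6, written 5′ to 3′ on the gene's own strand. Capitals mark, on either strand, the CCAAT box, the CACCC box, the GATA motif as GATAA, and the TATA box as ATATAA.
Hba-a1: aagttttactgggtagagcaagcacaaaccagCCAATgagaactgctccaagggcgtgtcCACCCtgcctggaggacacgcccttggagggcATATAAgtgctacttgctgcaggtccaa
Hbb-bs: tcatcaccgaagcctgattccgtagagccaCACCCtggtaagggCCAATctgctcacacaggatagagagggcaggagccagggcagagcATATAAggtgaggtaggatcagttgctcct
Hbb-bt: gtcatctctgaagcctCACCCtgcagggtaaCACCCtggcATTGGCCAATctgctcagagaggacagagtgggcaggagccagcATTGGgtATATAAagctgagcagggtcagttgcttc
Alas2: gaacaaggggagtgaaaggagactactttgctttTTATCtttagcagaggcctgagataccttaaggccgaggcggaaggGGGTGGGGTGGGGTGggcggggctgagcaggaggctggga
Bpgm: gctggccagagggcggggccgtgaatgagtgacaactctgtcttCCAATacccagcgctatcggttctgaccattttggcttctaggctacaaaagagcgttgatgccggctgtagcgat
The windows are 11:32283552-32283671 for Hba-a1, 7:103827929-103828048 for Hbb-bs, 7:103813924-103814043 for Hbb-bt, X:150547297-150547416 for Alas2 and 6:34476236-34476355 for Bpgm. Hba-a1 and Hba-a2 were identical at 116 of 116 bases compared when their starts were shifted by 3 bases, and Hbb-bs and Hbb-bt at 86 of 116 (74.1%). ATATAA began at -28 in Hba-a1, -30 in Hbb-bs and -29 in Hbb-bt, and was found in 4.47% of 32851 promoter windows of the same length. All 4 globin windows held CCAAT (21.3% of windows) and CACCC (31.7%). In Hbb-bt, 2 of the 3 CCAAT matches were on the other strand, and the first of them lies directly against the match on the gene's own strand. Alas2 held GATAA (10.5% of windows) and CACCC, each on the other strand, and Bpgm held CCAAT only. A match describes the letters and is no test of a site.

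Haemoglobin UMIs, tags that each mark 1 captured RNA molecule, lay almost entirely in a small set of barcodes. The library held 12855001 UMIs, of which 79591 (0.619%) came from the 4 haemoglobin genes. Barcodes with at least 10 UMIs were classed as red cell barcodes when these genes took over 50% of UMIs, and 26 of 67195 barcodes met this rule. Bins of depth end at 50 UMIs, below 200 UMIs, and at a cell limit set from the deepest barcodes, above which the shallowest barcode has 1334 UMIs. None of the 20532 barcodes of 10 to 50 UMIs and none of the 43155 barcodes from 51 to below 200 UMIs did. In the bin from 200 UMIs to the cell limit 2 of 1908 did, and above the limit 24 of 1600 did (1.5%, interval 0.963 to 2.22). The 26 barcodes held 76762 haemoglobin UMIs, 96.4% of the library's (interval 96.3 to 96.6). Of the rest, 418 UMIs lay in barcodes of 1 to 9 UMIs, 289 in barcodes of 10 to 50, 1501 from 51 to below 200, 533 from 200 to the cell limit and 88 above it.

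**Figure D1:**
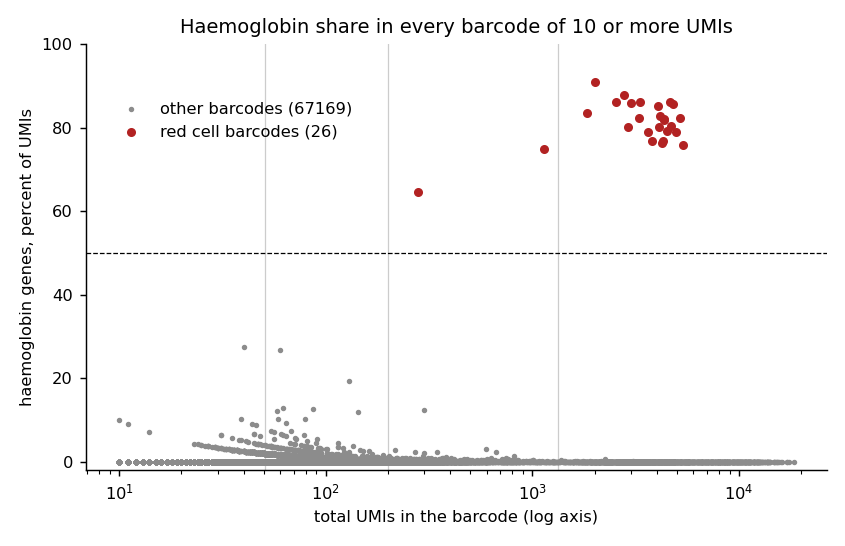
Percent of UMIs from the 4 haemoglobin genes (y axis) against total UMIs of the barcode (x axis, log scale) for every barcode of 10 or more UMIs. Grey lines mark the bins at 51 and 200 UMIs and the cell limit and the dashed line marks 50%. The 24 red cell barcodes above the cell limit sit between 75.8% and 90.8%, and the other barcodes of that depth sit at or below 0.581%.

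The threshold of 50% fell in an empty stretch. The lowest shares inside it were 64.6%, in a barcode of 280 UMIs, and 74.96%, in a barcode of 1142 UMIs, and these are the 2 red cell barcodes below the cell limit. The highest shares outside it were 27.5%, where 11 of 40 UMIs were haemoglobin, and 26.7%, where 16 of 60 were. Above the cell limit no barcode lay between 0.581% and 75.8%. None of the 10 barcodes with the highest shares outside the threshold had a UMI of Alas2, Cd3e or Cd79a. Such zeros are usual in shallow barcodes and do not tell what these 10 are. Of the 43155 barcodes from 51 to below 200 UMIs, 6 had Alas2 and 41507 had neither Cd3e nor Cd79a.

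The 24 red cell barcodes above the cell limit had 1828 to 5360 UMIs with a median of 4122, and 95 to 333 genes with a median of 220.5. Haemoglobin took a median of 82.2% of UMIs, which left 184 to 1295 UMIs for all other genes. Among the alpha genes, Hba-a1 had 203 UMIs in the lowest barcode, a median of 498.5 and 715 in the highest. Hba-a2 had 152, 399 and 522 UMIs in the same order. Every one of the 24 barcodes thus carried both alpha genes in large number, and the ranges of Hba-a1 and Hba-a2 overlap.

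Among the beta genes, Hbb-bs had 1015 UMIs in the lowest barcode, a median of 1878.5 and 2867 in the highest. Hbb-bt had 155, 376 and 552 UMIs. The Hbb-bs and Hbb-bt counts did not overlap. Of the erythroid genes, Alas2 had 14 UMIs in the lowest barcode, a median of 22.5 and 38 in the highest, and was found in each of the 24. Bpgm had 1, 9.5 and 26 UMIs and was found in each as well. Car2 had 0, 3 and 18 UMIs, and 7 of the 24 barcodes had none. Those 7 had 184 to 772 UMIs outside haemoglobin, so a count of 0 need not mean that Car2 RNA was absent.

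**Figure D2:**
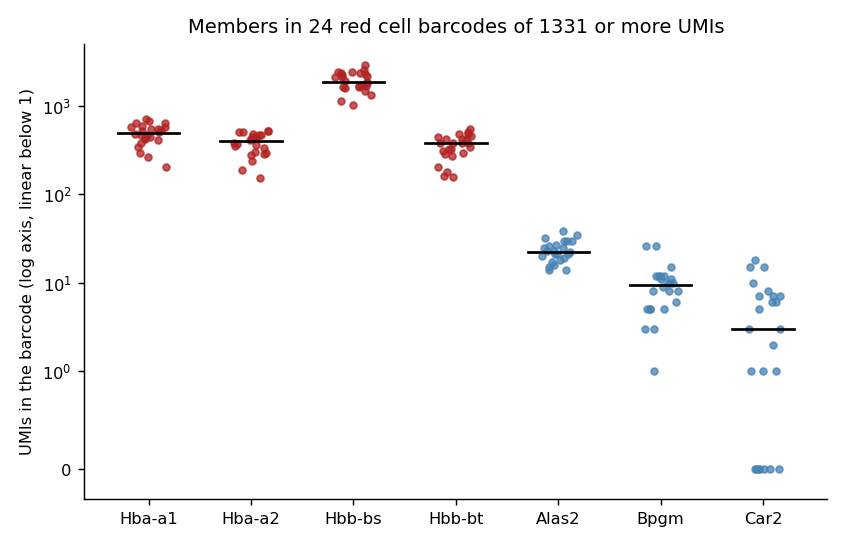
UMIs of each member (y axis, log scale, linear below 1) in the 24 red cell barcodes above the cell limit. Points are barcodes and bars are medians. Globin counts run from 152 to 2867, Alas2 from 14 to 38, and Car2 is at 0 in 7 barcodes.

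UMIs per kilobase of transcript were pooled over these 24 barcodes. The order was Hbb-bs (69816 UMIs per kb), Hba-a1 (15816), Hba-a2 (14193), Hbb-bt (12091), Alas2 (276), Bpgm (63.0) and Car2 (59.0). Per kb, Bpgm (interval 55.1 to 71.6) and Car2 (48.7 to 70.8) do not differ in this order beyond counting error. Without division by length they do, with 233 UMIs of Bpgm and 115 of Car2. These were 25.1 (22.0 to 28.6) and 12.4 (10.2 to 14.9) per 10000 UMIs. UMIs mark captured molecules, so the likeness of Bpgm and Car2 rests on the division by length. Hba-a1 and Hba-a2 were also near each other per kb. Whether their order depends on how reads of near-identical transcripts were assigned was not tested. Their transcripts matched at 646 of 647 aligned bases, with 91 bases annotated in Hba-a1 alone, so counting of unique reads can split or drop reads between them. Hbb-bs and Hbb-bt matched at 92.4% of aligned bases.

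The 2 red cell barcodes below the cell limit had 286 and 99 UMIs outside haemoglobin. The barcode of 1142 UMIs had 139 UMIs of Hba-a1, 124 of Hba-a2, 553 of Hbb-bs and 40 of Hbb-bt, with 2 of Alas2, 1 of Bpgm and 0 of Car2. The barcode of 280 UMIs had 18, 24, 130 and 9 UMIs of the 4 globin genes in that order and none of Alas2, Bpgm or Car2. Per 1000 UMIs outside haemoglobin, Alas2 in the deeper of them was 6.99, below the lowest of the 24 deeper barcodes (15.9), and Bpgm was 3.50, within their range. Hbb-bt took 4.67% and 4.97% of haemoglobin UMIs in these barcodes, below the 7.0% to 15.1% seen in the 24 deeper ones.

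The mix of globin genes kept within narrower limits over the 24 barcodes than Alas2, Bpgm and Car2 did per UMI outside haemoglobin. The denominators of these measures are unlike, and the counts of Alas2, Bpgm and Car2 are lower. The alpha share of haemoglobin UMIs ran from 20.7% to 32.0%, the Hba-a1 share of alpha UMIs from 52.2% to 60.8% and the Hbb-bs share of beta UMIs from 79.2% to 91.2%. Per 1000 UMIs outside haemoglobin, Alas2 ran from 15.9 to 103, Bpgm from 0.990 to 38.0 and Car2 from 0 to 23.4. The variance over mean of the counts, which counting error alone would put near 1 in barcodes of equal depth, was 1.86 for Alas2, 3.86 for Bpgm and 5.95 for Car2. Around an expectation in proportion to UMIs outside haemoglobin the same index was 4.50, 4.30 and 4.71, so Alas2 varied less in number than relative to the other genes. For the 4 globin genes, around an expectation in proportion to haemoglobin UMIs, it was 5.65 to 9.69. Measured against counting error the globin genes thus did not vary less. In the 12 barcodes with fewer UMIs, Alas2 was 40.4 per 1000 other UMIs (interval 35.6 to 45.7), and in the 12 with more it was 28.7 (25.6 to 32.1). Car2 was 5.25 (3.61 to 7.37) and 7.65 (6.08 to 9.49), and these intervals overlap.

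Red cell barcodes carried few marks of lymphocytes. None of the 26 had a T cell receptor clonotype, which allows a share of up to 11.5% (3 counts of 26), and 2 had any contig. Of the 1307 lymphocyte barcodes above the cell limit, defined as barcodes outside the red cell rule with a UMI of Cd3e or Cd79a, 923 (70.6%) had a clonotype. Red cell barcodes held 5 UMIs from 4 of 9 T cell markers in 5 barcodes, 2 of which had 1 UMI of Cd3e each, with Cd3g, Trac, Cd4, Cd8a and Cd8b1 at 0. Of the B cell list they held 2 UMIs with Cd79a at 0, of the monocyte list 6 UMIs in 2 barcodes, and of the platelet list 14 UMIs in 4 barcodes. The NK, neutrophil, basophil and SCLC tumour lists were at 0 UMIs of 17397 outside haemoglobin, which allows at most 3. The T cell markers thus stood at 2.87 per 10000 UMIs outside haemoglobin in these 26 barcodes (interval 0.933 to 6.71) and at 44.9 in lymphocyte barcodes, which were themselves chosen by Cd3e or Cd79a, although the label calls all cells T lymphocytes.

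When the 1600 barcodes above the cell limit were clustered on 2000 variable genes that left out all 7 members, other globins and receptor genes, the 24 red cell barcodes formed a cluster of their own, with no other barcode in it. Its leading genes included Apol11b, Alas2, Slc4a1, Tspo2, Trim10, Ube2l6, Rsad2 and Car2, and it was Erythroid-like by the marker list. That list holds the haemoglobin genes, by which these barcodes had been chosen, so the name is not independent of the red cell rule. A cluster of the 24 barcodes alone was found at Leiden resolutions 0.5, 1.0 and 2.0. Apol11b, Slc4a1, Tspo2 and Trim10 had the highest Pearson's r with pooled haemoglobin over the 15 clusters, 0.993 for each on the log scale. Each of these genes had 0 UMIs in lymphocyte barcodes. A gene found in the Erythroid-like cluster alone would get this same r whatever its level there. Their equal r thus shows where these genes were found and is no measure of a likeness beyond that. Alas2, Bpgm and Car2 had r of 0.992, 0.983 and 0.977. The points share 1 library, and the Erythroid-like cluster lies far from the other 14 in each of these genes.

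Alas2, Bpgm and Car2 were not used by the rule that chose red cell barcodes, and all 3 were higher there than in lymphocyte barcodes. Because haemoglobin fills most of a red cell barcode, rates were taken over UMIs outside the 4 haemoglobin genes, 17397 in the 26 red cell barcodes and 7291343 in the 3593 lymphocyte barcodes of 10 or more UMIs. Alas2 had 564 UMIs in red cell and 4 in lymphocyte barcodes, a ratio of rates of 59095 (interval 22953 to 217641). Bpgm had 234 and 130 UMIs, a ratio of 754 (606 to 942). Car2 had 115 and 44 UMIs, a ratio of 1095 (768 to 1588). With 1 library a gene was called by size alone, at 4-fold or more with 20 or more UMIs over both groups, and 3 of 3 members were called against 3.10% of 10763 genes outside haemoglobin (334 genes). Alas2 met the minimum only through red cell barcodes, so its call was fixed by the filter. Of these 334 genes, 159 rest on 1 to 4 UMIs in red cell barcodes, and 9356 of the 10763 had none there. Taking all UMIs in place of those outside haemoglobin divides every ratio by 5.41, a log2 shift of -2.44, and the 3 members still passed.

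The pathway that Alas2 starts was present in part. The list of 12 genes holds haem synthesis, its iron supply and Blvrb, which acts in haem breakdown. Of these 12 genes 7 were past the fold, against 3.10% of all genes. The other 5 had no UMI in red cell barcodes. The median ratio over the list was 15.1, against 0 over all genes tested. A gene with no red cell UMI counts as 0 here, and 86.9% of all genes tested had none. Abcb10 met the minimum of UMIs only through red cell barcodes. With the minimum set on lymphocyte barcodes alone 6 of 11 were past the fold, against 2.98%, with a median of 11.9. Fech, which inserts iron into the porphyrin ring, had 99 UMIs against 106 in lymphocyte barcodes (391-fold, interval 295 to 520) and was found in 23 of 26 barcodes. Slc25a37, mitoferrin 1, which brings iron into mitochondria, had 50 UMIs (272-fold, 187 to 394), and Blvrb, a biliverdin reductase, had 51 (216-fold, 151 to 306). Glrx5, a glutaredoxin of iron-sulphur cluster assembly, had 37 UMIs (49.4-fold, 34.1 to 69.6). The enzymes Urod and Cpox had 8 and 5 UMIs, and Abcb10 had 2, so their ratios of 11.9 to 44.1 are imprecise. With all UMIs as denominator Urod and Cpox came to 3.37 and 2.20 and lost the call, which left 5 of 12 past the fold against 0.864% of all genes. These 5 were Fech, Slc25a37, Blvrb, Glrx5 and Abcb10, of which Fech alone is an enzyme of haem synthesis. Alas1, the form of the first enzyme found in other tissues, Alad, Uros, Ppox and Slc25a38 were at 0, which allows ratios of up to 7.67 (Slc25a38) to 14.97 (Alad). These 5 were not detectable at this depth.

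Genes of the red cell membrane were found in part, some of them with no UMI in lymphocytes. Of 17 listed genes 12 had a UMI in red cell barcodes. Enough UMIs to be tested were found for 5, and 3 of these were past the fold, against 3.10% of all genes. Slc4a1 and Tspo2 met the minimum of UMIs only through red cell barcodes, where they are high, and with the minimum set on lymphocyte barcodes alone 1 of 3 was past the fold, against 2.98% of all genes so tested. Slc4a1, the band 3 anion exchanger, had 60 UMIs in 16 barcodes against 0, at least 8382-fold higher. Tspo2 had 21 UMIs against 0, at least 2934-fold higher. Epb41, protein 4.1 of the membrane skeleton, had 70 UMIs against 1241 (23.6-fold, interval 18.3 to 30.1). Epb42 had 6 UMIs against 1, under the 20 UMIs needed. Slc2a1 and Gypc were at 0 in red cell barcodes.

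Late erythroid and reticulocyte genes were high in most cases, and 5 of the 14 in the table were found in 24 or 25 of the 26 red cell barcodes. Of 12 tested 11 were past the fold, against 3.10% of all genes, with a median ratio of 81.2. With all UMIs as denominator 9 of 12 were, against 0.864%. Trim10, with 21 UMIs against 0, met the minimum of UMIs only through red cell barcodes. With the minimum set on lymphocyte barcodes alone 10 of 11 were past the fold, against 2.98%, with a median of 76.7. Mkrn1, a ubiquitin ligase, had 265 UMIs (166-fold, interval 143 to 191) in 24 of 26 barcodes. Ube2l6, a ubiquitin-like conjugating enzyme, had 183 (2474-fold, 1684 to 3747) in 25 barcodes. Bnip3l, which marks mitochondria for removal in reticulocytes, had 133 UMIs (60.7-fold, 50.2 to 72.9) in 25 barcodes. Ube2o, a ubiquitin conjugating enzyme of the reticulocyte, had 50 (172-fold, 121 to 241), and Bcl2l1, a survival factor, had 15 (76.7-fold, 41.1 to 134) in 11 barcodes. Xpo7 had 8 UMIs (5.14-fold, 2.21 to 10.2) in 4 barcodes, and its ratio was 0.95 with all UMIs as denominator. Fbxo7 and Trim58 were at 0, and Hemgn had 1 UMI against 0.

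Antioxidant genes of the red cell were high in part. Gpx1, glutathione peroxidase, had 633 UMIs, more than Alas2, and was 198-fold higher (interval 180 to 218) in 23 barcodes. Prdx2, peroxiredoxin, had 114 UMIs (89.8-fold, 72.7 to 110) and Cat, catalase, 61 (67.3-fold, 50.5 to 88.4). Sod1 was at 0, which allows a ratio of up to 8.01. The median ratio of the 4 was 78.5. The ferritin chains Ftl1 and Fth1, which store iron, had 179 UMIs (13.9-fold, 11.9 to 16.1) and 99 UMIs (6.22-fold, 5.05 to 7.59). With all UMIs as denominator these came to 2.56 and 1.15 and no longer passed the fold.

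Glycolytic genes, which supply the substrate of Bpgm, were not past the fold with it. Of 10 tested none was past the fold upwards and 2 were past it downwards, against 1.93% of all genes called lower (208 of 10763). With all UMIs as denominator 6 of the 10 were past it downwards, against 12.5% of all genes (1340). Both percentages have a limit. A gene at 0 in red cell barcodes was called by the highest ratio its count allows, so it needed many lymphocyte UMIs to be called lower. Of the 10763 genes, 9356 had no red cell UMI. The percentages thus depend on abundance, and whether glycolytic genes were lower more often than equally abundant genes was not tested. Gapdh had 1 UMI against 4124 (0.102-fold, interval 0.00257 to 0.567) and Ldha 1 against 2484 (0.169-fold, 0.00427 to 0.941). Aldoa had 4 UMIs against 2021 (0.830-fold, 0.226 to 2.13), Gpi1 had 2 and Pkm 1, and Eno1, Hk1, Pfkl, Pgam1 and Pgk1 had none. The median ratio of the 10 was 0.0508, with the genes at 0 counted as 0. Their counts of 0 allow ratios of up to 1.23 (Eno1) to 6.07 (Pfkl). Pklr, the red cell pyruvate kinase, had no UMI in red cell barcodes and was too low to be tested. Car2 was the carbonic anhydrase found: Car1, Car3, Car4, Car5b and Car13 were at 0 UMIs of 17397, and Car5b, the 1 of them with enough UMIs to be tested, had 30 in lymphocyte barcodes.

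Genes of earlier erythroid stages had few UMIs in red cell barcodes. Of the erythroid transcription factors Lmo2 had 9 UMIs against 43 (87.7-fold, interval 37.6 to 182), and Klf1, Tal1, Zfpm1 and Nfe2 had 1 UMI each. Of 5 tested 2 were past the fold, Lmo2 and Nfe2, against 3.10% of all genes. Nfe2 met the minimum only through its red cell UMI. With the minimum set on lymphocyte barcodes alone 1 of 4 was past the fold, against 2.98%. Gata1, Gfi1b and Ldb1 were at 0, and for Gata1 with 23 UMIs in lymphocyte barcodes this allows a ratio of up to 54.7. Of the progenitor and cycle list, Tfrc, the transferrin receptor, had 3 UMIs against 97 (12.96-fold, 2.63 to 39.02). With all UMIs as denominator Tfrc came to 2.39-fold, under the fold. Kit, Cd34, Epor, Mki67 and Top2a were at 0, which for Top2a and Mki67 allows ratios of up to 30.7 and 44.9. The embryonic globins Hba-x, Hbb-bh1, Hbb-bh2 and Hbb-y were at 0 too. The theta globins Hbq1b and Hbq1a had 11 UMIs in 10 barcodes and 6 UMIs in 5, against 2 and 0 in lymphocytes. Over all lists 29 of 55 tested genes were higher, against 3.10% of all genes, and 2 lower, against 1.93%. Both of the lower genes were glycolytic, and the 1.93% has the limit given for them above. The median ratio was 6.22. Of the 55 genes, 5 met the minimum only through red cell barcodes. Over the other 50 the median was 1.79 with 24 higher, against 2.98% of all genes so tested.

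**Figure D3:**
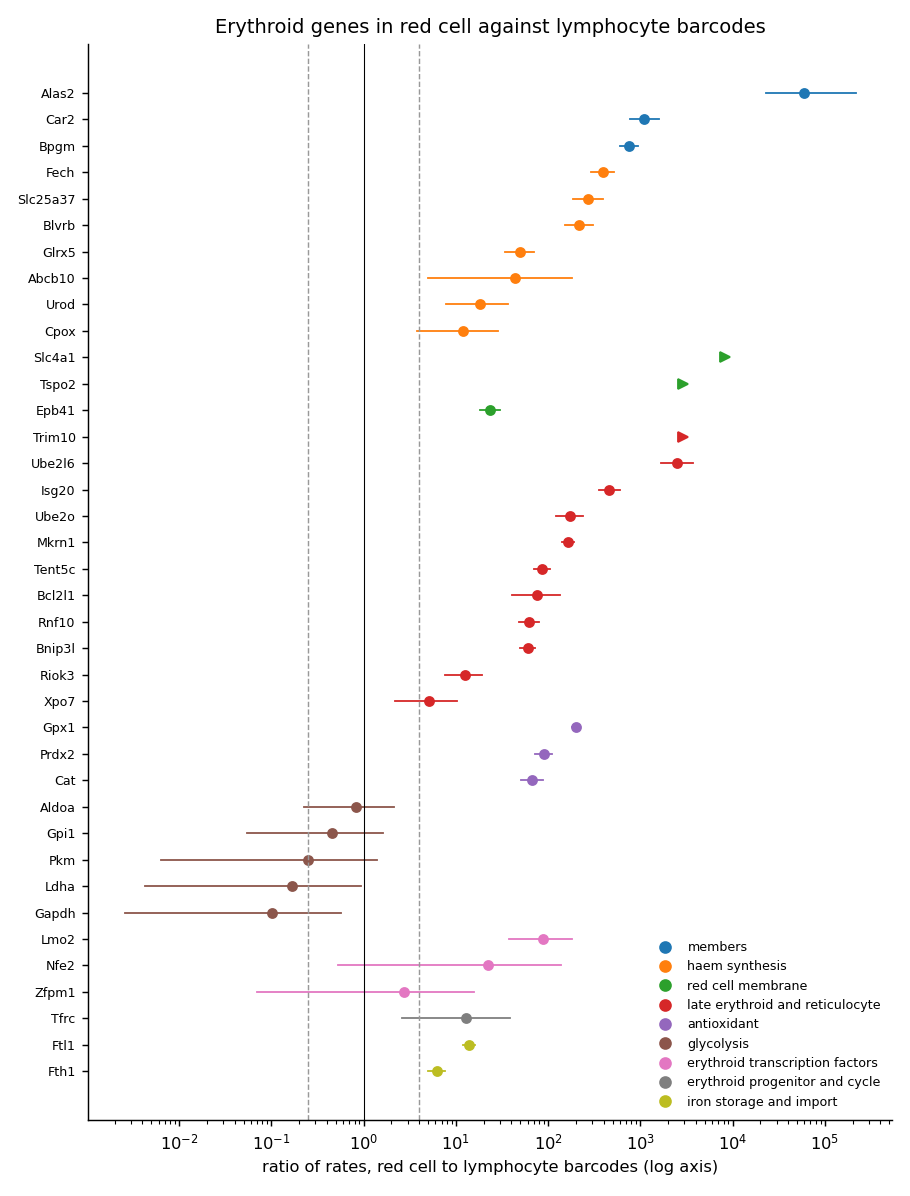
Ratio of rates in red cell to lymphocyte barcodes (x axis, log scale) over UMIs outside haemoglobin, for Alas2, Bpgm, Car2 and the tested genes of the erythroid lists that have a red cell UMI. Points are ratios, lines are exact 95% intervals, triangles are lower bounds where lymphocytes had 0 UMIs, and dashed lines mark 4-fold in either direction. Alas2 lies farthest to the right and the glycolytic genes lie to the left of 1.

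Among genes that no list held, Apol11b had a high ratio, with 80 UMIs in 12 barcodes against 0, at least 11176-fold higher. Gda, guanine deaminase, had 28 UMIs against 4 (2934-fold, interval 1026 to 11511), Rsad2, viperin, had 152 against 38 (1676-fold, 1168 to 2460), and Prxl2a had 90 against 43 (877-fold, 603 to 1293). Apol11b and Gda met the minimum of UMIs only through red cell barcodes, so their calls were fixed by the filter. These genes were also picked as the highest by this same ratio. At the other end were Rpl15 and Rpl36, parts of the ribosome, and Ccl5, a T cell chemokine, with 1, 2 and 2 UMIs in red cell barcodes. Ribosomal protein genes together took 4.54% of UMIs outside haemoglobin in red cell barcodes (interval 4.23 to 4.86) and 26.2% in lymphocyte barcodes above the cell limit. Mitochondrial genes took 0.747% (0.625 to 0.887) and 1.79%. Malat1, a nuclear RNA, took 0.0862% (0.0483 to 0.142) and 1.05%.

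In lymphocyte barcodes haemoglobin was scarce. The 1307 above the cell limit held 44 haemoglobin UMIs in 7081415, a rate of 0.0621 per 10000 (interval 0.0451 to 0.0834), and no barcode had more than 2. At least 1 haemoglobin UMI was found in 40 of them (3.06%, interval 2.20 to 4.14), at a median depth of 4380 UMIs. Thinned to the UMIs of the cell limit, 1.08% would have one. Thinned to 2500 UMIs, without the 193 shallower barcodes, the share was 1.80%. Barcodes with Cd3e and no Cd79a had 0.0603 per 10000 (0.0431 to 0.0821), and those with Cd79a and no Cd3e 0.114 (0.0311 to 0.293). These intervals overlap, so no difference between T and B cells was detectable.

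Shallower barcodes had higher rates. In lymphocyte barcodes of 10 to 50 UMIs, of 51 to below 200 and of 200 to the cell limit the rate was 3.53 (interval 1.52 to 6.95), 3.98 (2.96 to 5.23) and 2.20 (1.17 to 3.76) per 10000 UMIs. Per barcode the figures were closer together: 1.48, 3.09, 13.1 and 3.37 haemoglobin UMIs per 100 lymphocyte barcodes in the 4 bins from shallow to deep. Below the cell limit the name lymphocyte can rest on 1 UMI of Cd3e or Cd79a, at median depths of 44, 68.5 and 448 UMIs. Of all 975 barcodes with a clonotype, 964 lay above the limit and 11 from 200 UMIs to it. The shallower barcodes thus need not be lymphocytes, and their rates are not rates of whole cells. In all barcodes of 10 to 50 UMIs, where no red cell barcode was found, the rate was 3.47 per 10000 (3.08 to 3.89). It was 4.77 (4.53 to 5.02) in those of 51 to below 200, and 7.40 (6.79 to 8.06) in those of 200 to the cell limit outside the red cell rule.

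The alpha share of haemoglobin UMIs differed between red cell barcodes and other barcodes of 10 or more UMIs. In the 24 red cell barcodes above the cell limit the alpha genes gave 27.5% of haemoglobin UMIs (interval 27.2 to 27.9), 26.8% per transcript length, and Hba-a1 gave 56.0% of alpha UMIs (55.3 to 56.6). In barcodes of 10 to 50 UMIs alpha was 39.4% (33.8 to 45.3) and Hba-a1 65.8% of it (56.3 to 74.4). In barcodes of 51 to below 200 UMIs these were 61.0% (58.5 to 63.5) and 83.0% (80.4 to 85.3). In those of 200 UMIs to the cell limit outside the red cell rule they were 82.6% (79.1 to 85.7) and 88.6% (85.3 to 91.4). In lymphocyte barcodes above the cell limit alpha was 68.2% (52.4 to 81.4) and 28 of 30 alpha UMIs were Hba-a1 (93.3%, 77.9 to 99.2). From 51 UMIs upwards the intervals of both shares lay above the red cell values. Hbb-bs gave 84.5% of beta UMIs in the 24 red cell barcodes. Its intervals at 10 to 50 UMIs (75.2 to 87.1), at 51 to below 200 (80.5 to 86.7) and in these lymphocyte barcodes (35.1 to 87.2) hold that value. From 200 UMIs to the cell limit outside the red cell rule it was lower, at 65.6% (55.0 to 75.1). Hba-a1 was 50.6% of all haemoglobin UMIs (48.1 to 53.2) in barcodes of 51 to below 200 UMIs. Red cell barcodes and these barcodes did not share 1 ratio.

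**Figure D4:**
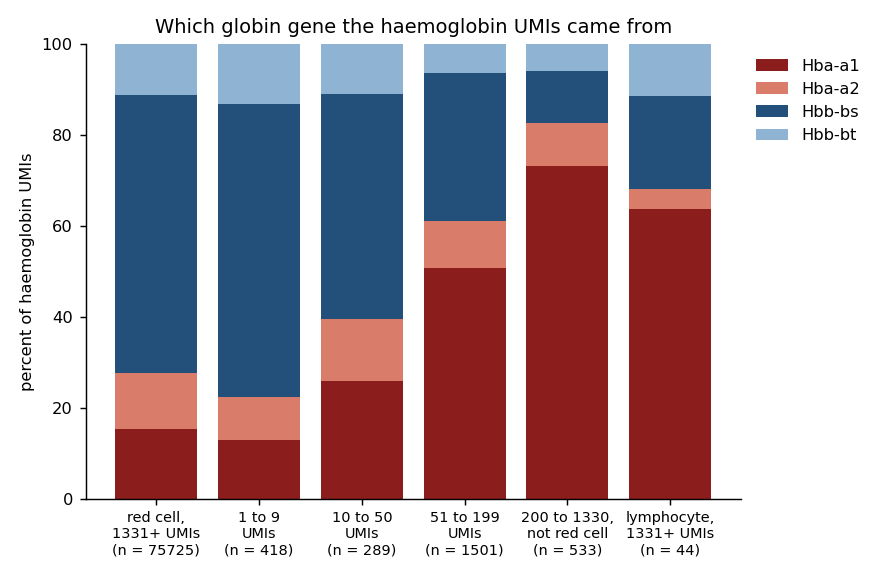
Percent of haemoglobin UMIs from each of the 4 genes (y axis, stacked to 100) in red cell barcodes above the cell limit, in barcodes of 1 to 9, 10 to 50, 51 to below 200, and 200 UMIs to the cell limit outside the red cell rule, and in lymphocyte barcodes above the cell limit. The n under each bar is its haemoglobin UMIs. Hba-a1 is 15.4% in red cell barcodes and 73.2% in barcodes of 200 UMIs to the cell limit.

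Hba-a1 outside red cell barcodes moved with UMIs of 7 platelet markers. In barcodes of 51 UMIs to the cell limit it was 1.35 per 10000 UMIs (interval 1.22 to 1.5) where no platelet marker UMI was found, 6.19 (5.45 to 6.998) with 1 to 2, 8.51 (7.59 to 9.51) with 3 to 9 and 6.02 (5.25 to 6.87) with 10 or more. The beta genes together were 1.81, 2.04, 1.15 and 1.59 per 10000 over the same steps, and Hba-a2 was 0.531, 0.933, 0.412 and 0.220. With no platelet UMI the beta genes exceeded Hba-a1, with 495 and 369 UMIs. At 10 or more platelet UMIs there were 219 UMIs of Hba-a1 and 8 of Hba-a2. Barcodes with more platelet UMIs were also deeper, with a median of 64, 79, 158 and 388.5 UMIs. Above the cell limit, 35 barcodes with 10 or more platelet UMIs held 31 of the 58 Hba-a1 UMIs found outside red cell barcodes, 2.37 per 10000 (1.61 to 3.37), against 0.0295 (0.0180 to 0.0456) in the 1355 with none. A single barcode gave 12 of the 31, and without it the rate was 1.48 (0.891 to 2.31). At 1 to 2 and 3 to 9 platelet UMIs Hba-a1 was 0.0694 (0.0225 to 0.162) and 0.0786 (0.00952 to 0.284). Both intervals overlap that of the 1355. The beta genes were 0.612 (0.264 to 1.21) and Hba-a2 0.230 (0.0474 to 0.671) per 10000 in the 35 barcodes. In the 1355 with none they were 0.0221 (0.0124 to 0.0365) and 0.00295 (0.000357 to 0.0107), so above the limit these genes rose too. Alas2 had 0 UMIs in those 35 barcodes, which allows up to 0.230 per 10000. What the platelet markers contribute to Hba-a1 was not tested.

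**Figure D5:**
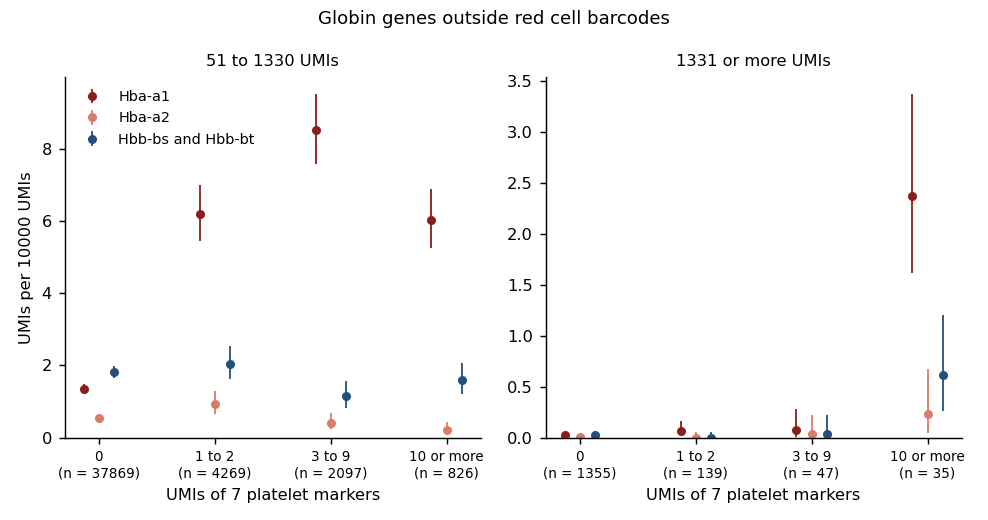
UMIs per 10000 UMIs (y axis) of Hba-a1, Hba-a2 and the beta globin genes in barcodes outside the red cell rule, by the number of UMIs of 7 platelet markers (x axis, n is barcodes), from 51 UMIs to the cell limit (left) and above it (right, its own scale). Points are pooled rates and lines are exact 95% Poisson intervals. Below the limit Hba-a1 rises from 1.35 to 6.19 at 1 to 2 platelet UMIs, while Hba-a2 and the beta genes stay at or below 2.04.

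Clusters divided this haemoglobin unevenly. The Platelet-like cluster of 53 barcodes held 44 of the 88 haemoglobin UMIs found outside red cell barcodes above the cell limit, 32 of them Hba-a1. T cell receptor clonotypes were found in 30 of the 53 barcodes, and these 30 held 7 haemoglobin UMIs, 0.453 per 10000 (interval 0.182 to 0.934), while the 23 without held 37, 6.69 per 10000 (4.71 to 9.22), of which 13 lay in 1 barcode. The other 13 clusters held 0 to 9 haemoglobin UMIs each. The Neutrophil-like cluster of 22 barcodes held 1, and the Basophil-like and NK-like clusters of 15 and 14 barcodes held none.

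Bpgm was the member found most in lymphocytes, Car2 stood at about the rate of haemoglobin, and Alas2 was nearly absent. In lymphocyte barcodes above the cell limit Bpgm had 130 UMIs in 113 barcodes (8.65%, interval 7.18 to 10.3), a rate of 0.184 per 10000 (0.153 to 0.218). Car2 had 42 UMIs in 37 barcodes, 0.0593 per 10000 (0.0427 to 0.0802), and Alas2 4 UMIs, 0.00565 per 10000 (0.00154 to 0.0145). For each Alas2 UMI there were 32.5 of Bpgm in these barcodes and 0.415 in red cell barcodes. For Car2 the figures were 10.5 and 0.204. In barcodes of 10 to 50 UMIs Bpgm was 0.120 per 10000 (0.0575 to 0.221), an interval that overlaps that of the lymphocytes, and Car2 was 0.0720 (0.0264 to 0.157), which also overlaps, while haemoglobin was 3.47 there and 0.0621 in lymphocytes. Among clusters of over 100 barcodes Bpgm ran from 0.107 (0.0664 to 0.164) to 0.247 (0.144 to 0.395) per 10000, and the intervals of these ends overlap. The highest rate outside the Erythroid-like cluster was 0.499 (0.249 to 0.894), in a T-like cluster of 48 barcodes.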

How the data were processed

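Peripheral blood cells of 1 vehicle-treated mouse were measured by droplet gene expression and T cell receptor sequencing. The authors processed the reads with Cell Ranger (version 4.0.0 in the matrix header) on GRCm38, per the submitters' processing notes, and deposited raw UMI counts of 32285 genes in 300213 barcodes with no filter on cells, and a contig table with counts of reads and UMIs per contig. The version of the annotation is not given in the sources used here. Reads that map to more than 1 gene are usually left out of such counts, which bears on the near-identical alpha globin genes.

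Counts were used as deposited. Rates pooled UMIs over barcodes, per 10000 UMIs. Ratios between red cell and lymphocyte barcodes used UMIs outside the 4 haemoglobin genes, an exact conditional binomial interval, and 3 counts in place of a 0. Median ratios over a list instead counted a gene with no red cell UMI as 0. Genes were called at 4-fold or more with 20 or more UMIs over both groups. No test across genes or animals was run, since there is 1 library. The cell limit is the 99th percentile of total UMIs among the 3000 deepest barcodes divided by 10, and the shallowest barcode above it has 1334 UMIs. Clustering used Scanpy 1.11.5 in Python 3.11.15 with 30 components, 15 neighbours and Leiden resolution 1.0. A cluster took a cell type's name if 3 or more genes of a marker list, making up most of it, each reached 25% of the cells in it. Scrublet predicted 10 of 1600 barcodes (0.625%) as doublets, none of them red cell barcodes, and doublets were kept. The ratio and the thinning were tried on simulated data. The ratio was tried only on genes with many more lymphocyte UMIs than Alas2, Bpgm or Car2 had. Ratios from small counts and from counts of 0 were not tried. Transcript lengths and identity are from GENCODE transcripts, and promoter sequences and positions from RefSeq on GRCm38.p6. Car2 is named without a sequence.

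The members, gene lists and alternatives were chosen with earlier results of these data known. Named genes are the members, the genes of the lists, and the genes at the 2 ends of the ratio, the 10 highest and the 5 lowest. Some of these genes are not reported here and were left out of the lists. Alternatives were other shares and UMI limits, other gates, other denominators, other folds, subtraction of free RNA and other clusterings.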

Additional observations from a re-analysis of the deposited data

Results flagged for a closer look

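Barcodes of 1 to 9 UMIs, set beside others above only for the mix of globin genes, held haemoglobin at 23.6 per 10000 UMIs (418 UMIs), above the 3.47 per 10000 in barcodes of 10 to 50 UMIs. Barcodes with 1 UMI in all held it at 32.4 per 10000 (interval 28.7 to 36.4), those of 2 to 4 UMIs at 15.4 (12.6 to 18.6), those of 5 to 9 UMIs at 14.9 (10.2 to 20.9) and those of 10 to 29 UMIs at 3.90 (2.27 to 6.25). The mix of genes in barcodes of 1 to 9 UMIs was near that of the red cell barcodes: alpha genes gave 22.2% of haemoglobin UMIs (18.4 to 26.5), Hba-a1 58.1% of alpha UMIs (47.4 to 68.2) and Hbb-bs 83.1% of beta UMIs (78.5 to 87.0). The last 2 intervals hold the red cell values of 56.0% and 84.5%, and the first lies below 27.5%. Alas2 had 8 UMIs, Bpgm 4 and Car2 4 in these barcodes. The signal was not tested against a cause.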

How the results depend on the processing

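No paired analysis was possible because there is 1 library. Of 71 alternative values, 52 stayed within the interval of the main value, or for counts within 1.5 times of it. A haemoglobin share over 90% left 1 red cell barcode with 2.29% of haemoglobin UMIs, and over 75% left 24 with 95.1%. Keeping red cell barcodes with a Cd3e UMI among lymphocytes gave 7.96 haemoglobin UMIs per 10000, because 2 of them have one. Thinning lowered the share of lymphocyte barcodes with haemoglobin to 1.08% at the cell limit and 1.80% at 2500. With all UMIs as denominator the ratios of Alas2, Bpgm and Car2 were 10919, 139 and 202. Genes past the fold upwards numbered 520 at 2-fold, 207 at 8-fold, 93 with all UMIs, 93 with the median of ratios, and 175 with 5 or more red cell UMIs required. Downwards they numbered 478, 91, 1340 and 1336 in the first 4 of these. The split of calls thus moved from 334 higher and 208 lower to 93 higher and 1340 lower. Of the list genes 22 of 55 passed upwards and 7 downwards with all UMIs, against 0.864% and 12.5% of all genes. The 12.5% has the limit given above for the glycolytic genes. The 5 UMI minimum, the denominators for the lists and leaving out the Platelet-like cluster were chosen after seeing the data. So were a minimum of 20 UMIs in lymphocyte barcodes alone, which left 24 of 50 list genes past the fold upwards, and leaving out the barcode with most Hba-a1, which took Hba-a1 at 10 or more platelet UMIs above the cell limit from 2.37 to 1.48 per 10000. Without the Platelet-like cluster haemoglobin in lymphocyte barcodes was 0.0535 per 10000. With 17397 UMIs outside haemoglobin, genes at 0 in red cell barcodes were below detection.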
